A study of Arabidopsis thaliana with 12 samples.

Results

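Cytosolic ribosomal protein genes of Arabidopsis thaliana were followed by RNA sequencing in imbibed seeds: 58 genes chosen by locus for the proteins they encode, 29 of the small (40S) and 29 of the large (60S) subunit, out of 36795 loci in the count and TPM tables. The seeds were of the wild type Col-0 or of odr1-2, a mutant allele of ODR1, a gene known as a regulator of seed dormancy. After-ripened seeds of both genotypes spent 2 days at 4 °C and then 12 h in distilled water, the control medium, or in 300 mM mannitol, used as an osmotic stress. A growth temperature of 22 °C and 16 h of light are given for every sample. That made 4 groups, each of 3 biological replicates and so 12 libraries. Whole seeds were used, so embryo, endosperm and seed coat share each library, and odr1-2 is represented by 1 allele. The mutant labels were not checked against the ODR1 transcript, which was not analysed here.

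The cytosolic ribosome joins a small subunit, which reads the messenger RNA, to a large subunit, which links the amino acids. Each ribosomal protein of Arabidopsis is encoded by a small family of near-identical paralogues, and the products of all families are needed in similar amounts. Dry seeds carry stored ribosomes and messenger RNA, and imbibed seeds need protein synthesis to germinate. In plants as in other eukaryotes, ribosome production and translation are under the control of the kinase TOR, which acts through S6 kinase on the small subunit protein S6.

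Genes without a symbol in the RefSeq annotation are given here by locus, with the name of the protein family. The 58 genes fell into 41 families, of which 11 held 2 members, 3 held 3 members (S3, S4 and S18), and the others held a single one. The short promoters of plant ribosomal protein genes are known for 2 kinds of element, the telo box and site II. In the 250 bases before the annotated start, a site II match (TGGGCC or TGGGCT, either strand, overlapping matches counted apart) was found in 40 of the 58 promoters, 69.0%, against 19.2% of 27443 nuclear protein-coding genes. The telo box (AAACCCTAA, either strand) was found in 5 of the 58, 8.62%, against 2.61% of all. In 1 of the 5, RPS5A, it shares its first base with a site II match. Site II was held by 20 of the 29 small subunit promoters and by 20 of the 29 large subunit promoters, and among 183 other cytosolic ribosomal protein genes by 127, 69.4%. Median log2 fold changes in the 4 comparisons below lay between -0.29 and -0.19 for genes with site II and between -0.34 and -0.16 for the 18 without it. Matches are letters in a window and show no binding.

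The promoters of 5 genes are printed from RefSeq assembly TAIR10.1, 5′ to 3′ and ending just before the annotated start, with telo box and site II matches in capitals. They are the S9 and L24 pairs, whose paralogues differed in their response and in these letters, and the S23 gene with the largest fold changes of the 58. Other pairs, not printed, differed in both ways too. In the L4 pair AT3G09630 holds 4 site II matches and AT5G02870 holds 0. In the S13 pair AT3G60770 holds 2 and RPS13A holds 0.
S9 gene AT5G15200, chr5:4936430-4936679, strand -: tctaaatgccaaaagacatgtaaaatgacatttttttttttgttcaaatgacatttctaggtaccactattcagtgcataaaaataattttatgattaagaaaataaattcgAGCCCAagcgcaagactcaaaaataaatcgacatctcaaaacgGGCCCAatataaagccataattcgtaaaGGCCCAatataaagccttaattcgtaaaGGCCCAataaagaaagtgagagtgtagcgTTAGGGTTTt
S9 gene AT5G39850, chr5:15949660-15949909, strand +: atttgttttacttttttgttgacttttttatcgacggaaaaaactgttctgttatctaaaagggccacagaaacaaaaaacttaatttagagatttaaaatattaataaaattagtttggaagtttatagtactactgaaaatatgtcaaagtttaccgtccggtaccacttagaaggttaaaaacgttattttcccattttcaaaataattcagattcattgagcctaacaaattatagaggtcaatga
L24 gene STV1, chr3:19662026-19662275, strand -: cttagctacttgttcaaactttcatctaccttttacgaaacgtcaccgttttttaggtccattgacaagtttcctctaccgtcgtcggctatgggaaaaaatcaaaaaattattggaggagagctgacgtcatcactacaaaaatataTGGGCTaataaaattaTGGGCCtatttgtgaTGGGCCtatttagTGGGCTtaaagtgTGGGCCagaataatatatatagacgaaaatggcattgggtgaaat
L24 gene RPL24A, chr2:15352014-15352263, strand -: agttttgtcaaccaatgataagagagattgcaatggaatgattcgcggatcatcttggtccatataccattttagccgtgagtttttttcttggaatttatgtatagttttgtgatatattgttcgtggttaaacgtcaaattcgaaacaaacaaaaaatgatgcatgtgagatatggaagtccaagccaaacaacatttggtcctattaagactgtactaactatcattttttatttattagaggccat
S23 gene AT3G09680, chr3:2970372-2970621, strand -: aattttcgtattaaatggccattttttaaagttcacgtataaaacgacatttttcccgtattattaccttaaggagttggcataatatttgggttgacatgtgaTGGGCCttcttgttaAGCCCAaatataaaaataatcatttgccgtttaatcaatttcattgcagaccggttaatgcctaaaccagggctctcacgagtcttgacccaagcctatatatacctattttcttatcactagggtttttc
The promoter of AT5G15200 holds 4 site II matches and 1 telo box, and that of its paralogue AT5G39850 holds neither. The promoter of STV1 holds 5 site II matches and that of RPL24A none, and the promoter of AT3G09680 holds 2. As the values below show, AT5G15200 was the S9 gene that fell further, and STV1 was the L24 gene that fell less.

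All 58 genes passed the filter on low counts that left 18413 genes for testing, in libraries of 10060020 to 13693166 counts. They were abundant: their median level over the 12 libraries was 942 TPM (transcripts per 1000000, a level per length), against 15.8 TPM over the genes tested, and 40 of the 58 were among the 184 genes (the top 1%) with the highest mean TPM. The S8 gene AT5G20290 was the most abundant, at 3170 TPM on average. At the other end the S23 gene AT3G09680 averaged 11.7 TPM, and the P0 gene AT2G40010 was the other one under 100 TPM. Between these, 52 of the 58 had a mean of at least 500 TPM.

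Together the 58 genes took a smaller part of the messenger RNA in each step from Col-0 in water to odr1-2 in mannitol. Their summed level was 77300 ± 326 TPM in Col-0 water, 65200 ± 2030 in Col-0 mannitol, 61800 ± 1190 in odr1-2 water and 50400 ± 289 in odr1-2 mannitol (SD, n = 3). The 3 libraries of Col-0 water lay between 77100 and 77700 TPM, above the other 9, and the 3 of odr1-2 mannitol, between 50200 and 50800, lay below the others. Relative to Col-0 water the sum stood at 84.3% in Col-0 mannitol, 80.0% in odr1-2 water and 65.2% in odr1-2 mannitol. On TMM-scaled counts, which set aside part of the change in composition, the last was 70.8%. The 2 subunits moved in step: the summed TPM of the small subunit genes divided by that of the large subunit genes stayed between 0.830 and 0.855 in the 12 libraries. Col-0 mannitol replicate 2 stood somewhat apart from its group, with the highest sum of the 58 (67400 TPM, against 63400 and 64700). Chi-square per degree of freedom between it and the other 2 was 5.75 and 4.48, against at most 2.8 for other replicate pairs, and its endosperm markers summed to 3200 TPM, against 5040 and 5130. Without it the sum in Col-0 mannitol was 82.9% of that in Col-0 water. Genes lower among the 58 then numbered 52 with mannitol in Col-0 and 49 in odr1-2. In odr1-2 against Col-0 they numbered 57 in water and 54 in mannitol. The share of all genes called without this library was not determined, so these counts have no background beside them. The summed levels are relative to the rest of each library, and in whole seeds fewer cells of a type and less RNA per cell cannot be told apart.

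**Figure D1:**
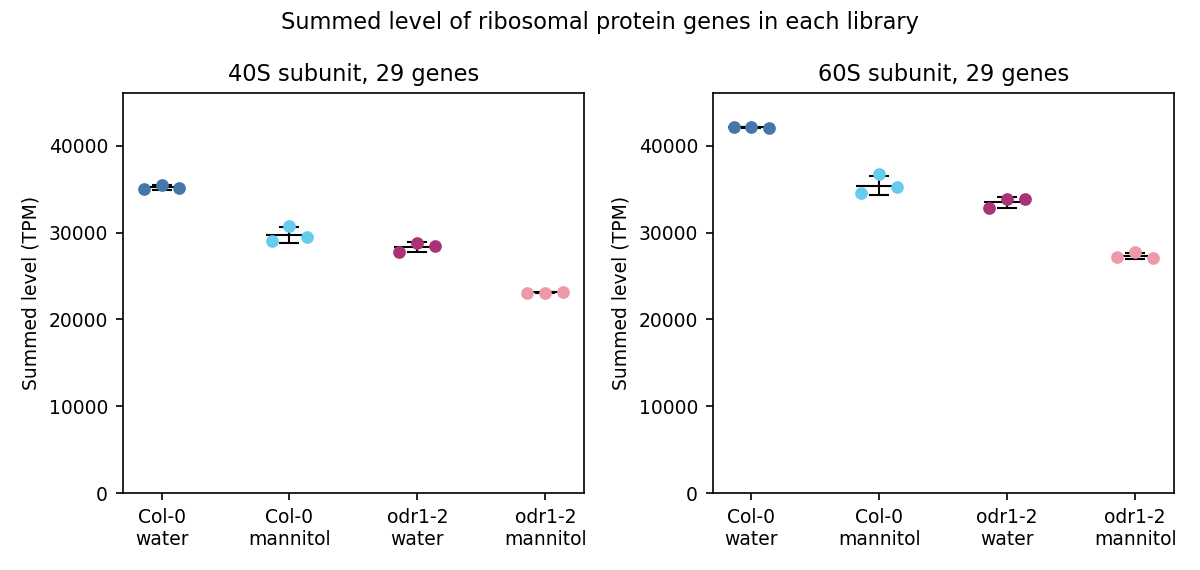
Summed TPM of the 29 small (40S) and the 29 large (60S) subunit genes in each of the 12 libraries; points are libraries, the wide bar is the group mean and the whiskers are the SD over 3 libraries. In both panels Col-0 water is highest, Col-0 mannitol and odr1-2 water lie in between, and odr1-2 mannitol is lowest.

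Other parts of the seed messenger RNA moved with these groups. The summed level of 11 seed storage markers (cruciferins, 2S albumins and oleosins) was 11600 TPM in Col-0 water, 28200 in Col-0 mannitol, 28800 in odr1-2 water and 48500 in odr1-2 mannitol. Of these markers 11 rose under mannitol in either genotype, and 9 were higher and 1 lower in odr1-2 in water. The summed level of 7 endosperm markers ran from 3640 to 4020 TPM in Col-0 water, from 3200 to 5130 in Col-0 mannitol, from 8780 to 9740 in odr1-2 water and from 9480 to 10300 in odr1-2 mannitol. Of the 6 of them tested, 1 rose and 1 fell under mannitol in Col-0, 2 fell in odr1-2, 3 were higher in odr1-2 in water, and 3 were higher and 1 lower in mannitol. ZOU, 1 of the 7 endosperm markers, was at 0 CPM in 3 of the 4 groups and near 0 in the other. The 4 seed coat markers summed to between 7.24 and 10.9 TPM in the 12 libraries, with BAN and TT10 each at 0 CPM in 3 groups. The part of these shifts in the results on ribosomal protein genes was not tested.

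Under mannitol most of the 58 genes fell by a small amount in wild-type seeds. In Col-0, 43 of the 58 fell, none rose and 15 did not pass the threshold (edgeR quasi-likelihood test, Benjamini-Hochberg adjusted p under 0.05 over all genes tested). Of all genes tested 21.4% fell and 21% rose. None of the 58 was higher at an unadjusted p under 0.05 either, in this or the next 3 comparisons, and DESeq2 and limma gave the same count of 0. The median log2 fold change was -0.19, a level of 87.7%, against 0.00 over all genes. The small subunit had 22 of 29 genes lower with a median of -0.18, and the large subunit 21 of 29 with a median of -0.20. In 42 of the 58 genes all 3 mannitol libraries lay below all 3 water libraries, as in 25% of all genes.

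The largest fall was that of AT3G09680, one of the genes for S23, a protein at the decoding centre of the small subunit. Its level was 21.8, 22.3 and 20.9 TPM in the Col-0 water libraries and 8.00, 5.37 and 10.6 TPM in Col-0 mannitol, so the groups did not overlap. Its log2 fold change was -1.38 ± 0.22 (SE; adjusted p = 1.55e-07, edgeR), a level of 38.4% of that in water. It had the lowest level of the 58. It shares 14 exon bases with AT3G09670 on the opposite strand, whose count was 627% of its own. Next came AT2G09990, a gene for the small subunit protein S16, with 440, 460 and 456 TPM in water and 291, 310 and 295 TPM in mannitol. All its mannitol libraries were lower, with a log2 fold change of -0.54 ± 0.05. AT4G36130 is one of the 2 genes among the 58 for L8, a protein of the peptidyl transferase region. It had 847, 852 and 880 TPM in water and 592, 636 and 604 TPM in mannitol, and fell by 0.44 on the log2 scale. AT4G36130 shares 295 exon bases with AT4G36140 on the opposite strand, whose count was 35.3% of its own, and no setting for strand is given in the sources used here.

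The genes at the other end did not move past the threshold. PGY2, for the large subunit protein L9 and known from a leaf patterning mutant, had 450, 516 and 467 TPM in Col-0 water and 472, 520 and 471 TPM in Col-0 mannitol. These groups overlapped, with a log2 fold change of 0.09 ± 0.05 (adjusted p = 0.165, edgeR). Without Col-0 water replicate 2 or without Col-0 mannitol replicate 1 this value was 0.14 or 0.13 and passed the threshold. PGY2 and the other L9 gene AT1G33120 share 51.7% and 50.8% of their 100-base transcript windows with other loci, so reads may be split between them. PGY1, for the large subunit protein L10a, had 1380, 1360 and 1340 TPM in water and 1350, 1350 and 1350 TPM in mannitol, a log2 fold change of 0.05 ± 0.04 on scaled counts. AT5G39850, for the small subunit protein S9, had 589, 582 and 600 TPM in water and 551, 605 and 529 TPM in mannitol, a log2 fold change of -0.01 ± 0.05. Neither of the last 2 passed the threshold.

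In odr1-2 seeds mannitol had an effect of about the same size on these genes. Of the 58, 46 fell and none rose, with 21.3% of all genes lower and 21.2% higher, and the median log2 fold change was -0.21. The small subunit had 22 genes lower and the large subunit 24. In 46 genes the mannitol libraries all lay below the water libraries, as in 25.2% of all genes. Lower in both genotypes were 40 of the 58, as were 15.4% of all genes tested. Another 3 were called in Col-0 alone and 6 in odr1-2 alone, counts that do not show a difference between genotypes.

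AT3G09680 again had the largest fall, from 11.4, 14.1 and 13.4 TPM in odr1-2 water to 3.92, 5.53 and 3.42 TPM in odr1-2 mannitol. The groups did not overlap, and the log2 fold change was -1.50 ± 0.25 (adjusted p = 8.63e-07, edgeR). AT3G53890, for the small subunit protein S21, went from 633, 627 and 586 TPM to 425, 398 and 392 TPM and fell by 0.50 on the log2 scale, again with no overlap. AT2G20450, for the large subunit protein L14, had 521, 517 and 516 TPM in water and 337, 407 and 348 TPM in mannitol. It fell by 0.40 ± 0.13 (SE; adjusted p = 0.034, edgeR). That call was lost when any 1 of the 3 water libraries, or mannitol replicate 1 or 3, was left out, with adjusted p between 0.0709 and 0.103. At the top, SAC52, for L10, a protein of the large subunit joined late in assembly, had 1790, 2110 and 2130 TPM in water and 1960, 1870 and 1830 TPM in mannitol. Its groups overlapped, with a log2 fold change of 0.01 ± 0.08. PGY2 and the S4 gene AT2G17360 came next, at -0.00 ± 0.05 and -0.05 ± 0.04.

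Nearly all of the 58 genes were lower in odr1-2 than in Col-0. In water, 56 of the 58 were lower in odr1-2 and none was higher, with 18.6% of all genes lower and 20.4% higher, and the median log2 fold change was -0.29, a level of 81.8%. All 29 small subunit genes and 27 of the 29 large subunit genes were lower. In mannitol, 56 of the 58 were again lower in odr1-2 and none higher, with 19.6% of all genes lower and 20.5% higher, and the median was -0.31. In water 56 genes had all odr1-2 libraries below all Col-0 libraries, as did 24.5% of all genes, and in mannitol 53, as did 22.6%. The comparisons of genotype and of medium share libraries (Col-0 water stands in the first of each), so their values are given side by side and their likeness was not used as a result.

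In water the largest difference was again that of AT3G09680, at -0.71 ± 0.20 (adjusted p = 0.00274, edgeR), from 20.9 to 22.3 TPM in Col-0 and 11.4 to 14.1 TPM in odr1-2. AT2G09990 followed at -0.51 ± 0.05, with 281, 333 and 324 TPM in odr1-2 water, each below the lowest Col-0 water library at 440 TPM. AT1G09590, for the large subunit protein L21, also stood at -0.51, from 1610, 1520 and 1590 TPM in Col-0 to 1030, 1160 and 1090 TPM in odr1-2. The 2 genes not called were PGY2, at -0.09 ± 0.05, and AT2G40010, at -0.09 ± 0.09. PGY2 was called under upper-quartile scaling, at -0.14, and without Col-0 mannitol replicate 2. AT2G40010 is the minor gene for P0, the base of the ribosomal stalk, with 65.8, 59.8 and 70.2 TPM in Col-0 water and 64.0, 62.1 and 56.6 TPM in odr1-2 water. It shares 741 exon bases with AT2G40008 on the opposite strand, whose count was 67.5% of its own.

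In mannitol the genes with the largest differences between genotypes were AT3G09680, RP1 and AT2G20450. AT3G09680 stood at -0.83 ± 0.27 (adjusted p = 0.0108, edgeR), and without Col-0 mannitol replicate 3 or odr1-2 mannitol replicate 3 it was at -0.56 or -0.68 and no longer called. RP1, for L3, a protein close to the peptidyl transferase centre, had 1880, 1930 and 1870 TPM in Col-0 mannitol and 1300, 1310 and 1300 TPM in odr1-2 mannitol. The gap between its groups was far wider than their spread, with a log2 fold change of -0.48 ± 0.04. AT2G20450 stood at -0.48 ± 0.13 (adjusted p = 0.0177, edgeR) and lost its call without Col-0 mannitol replicate 2 or 3, without odr1-2 mannitol replicate 1 or 3, and when the 2 groups were fitted alone. The smallest differences were those of AT2G40010 at -0.12 ± 0.09, which was not called, AT2G31610 (S3) at -0.16 ± 0.04 and AT3G60770 (S13) at -0.18 ± 0.04. SAC52, at -0.21 ± 0.08, was the other gene not called (adjusted p = 0.0538, edgeR), and it passed under 11 of the alternatives, DESeq2 among them.

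**Figure D2:**
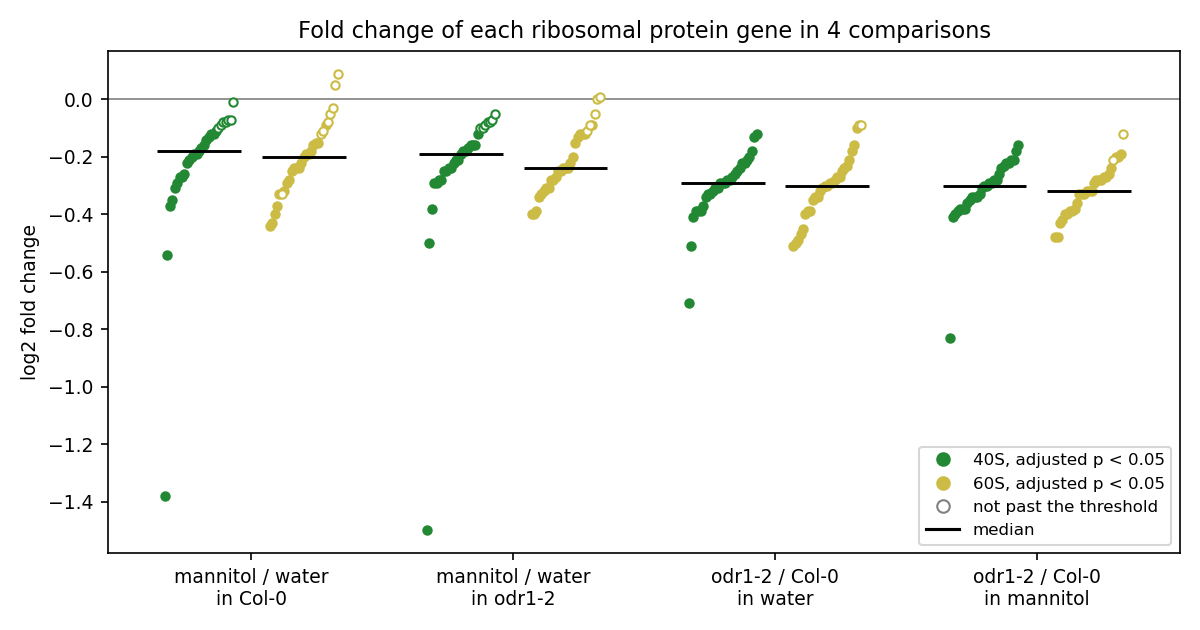
Log2 fold change of each of the 58 genes (vertical axis) in the 4 comparisons, sorted within each subunit; filled points passed an adjusted p under 0.05 and open points did not, and bars are medians. Nearly all points lie below 0 in each comparison, with medians between -0.32 and -0.18, and AT3G09680 lies lowest in each.

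Across the 4 comparisons 39 of the 58 genes were lower in each, as were 6.56% of all genes tested. The comparisons share groups, so their calls are not independent of each other. The group mean in CPM (counts per 1000000, TMM-scaled) was highest in Col-0 water and lowest in odr1-2 mannitol for 55 of the 58, as for 24.6% of all genes tested. In 57 of the 58 all odr1-2 mannitol libraries lay below all Col-0 water libraries, as for 32.9% of all genes. In 50 of the 58 the mean was lower in odr1-2 water than in Col-0 mannitol, a count whose share over all genes was not determined.

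Whether mannitol acted differently in the 2 genotypes was asked with the interaction of the same fit. None of the 58 genes passed the threshold in either direction in the edgeR fit, while 3.75% of all genes did. At an unadjusted p under 0.05 there were 2 positive and 4 negative ones, and the share of all genes at that unadjusted threshold was not determined. DESeq2 called 0, and limma called 1. The 58 interactions ran from -0.18 to 0.16 on the log2 scale. PGY1 was closest, at -0.18 ± 0.06 (adjusted p = 0.0572, edgeR): its level stayed at 1350 TPM in each Col-0 mannitol library but was 1100, 1080 and 1030 TPM in odr1-2 mannitol, against 1260, 1300 and 1220 TPM in odr1-2 water. Its groups in odr1-2 did not overlap, and PGY1 fell there by 0.13 on the log2 scale, a call lost when water replicate 2 or mannitol replicate 3 of odr1-2 was left out. The interaction of PGY1 passed the threshold under 4 of the other settings for scaling or test, with adjusted p between 0.00856 and 0.0298, and without Col-0 mannitol replicate 1 or 2 or odr1-2 mannitol replicate 1. The positive end of the range was held by AT2G09990 at 0.16 ± 0.08 and by AT2G37190, for the stalk base protein L12, at 0.15 ± 0.08. Without Col-0 mannitol replicate 2, AT2G09990 at 0.21 and the L6 gene AT1G18540 at 0.15 passed the threshold.

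**Figure D3:**
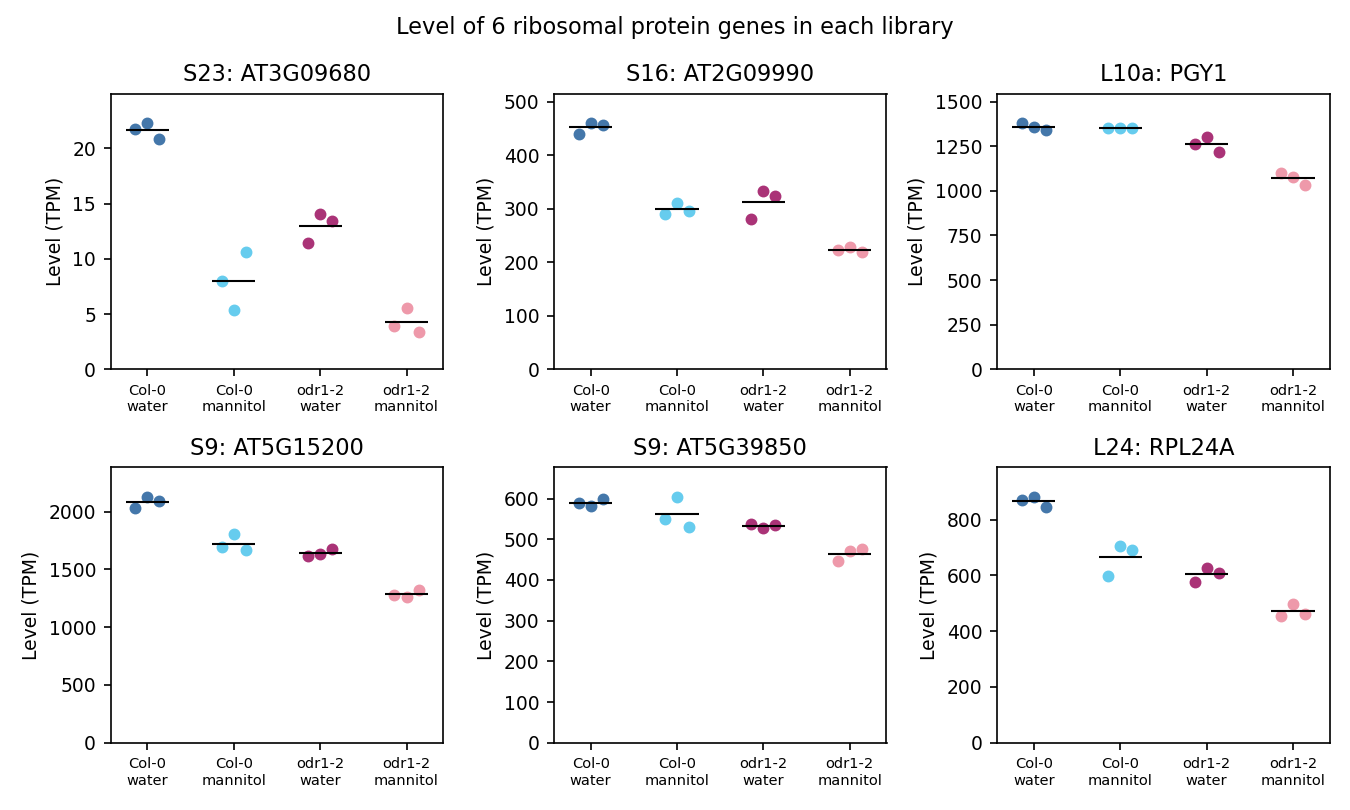
Level in TPM (vertical axis, from 0) of 6 genes in each of the 12 libraries, with bars at the group means. AT3G09680 and AT2G09990 drop in both mannitol groups, PGY1 is level in Col-0 and lower in odr1-2 mannitol, and AT5G39850 overlaps between Col-0 water and Col-0 mannitol while its paralogue AT5G15200 does not.

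Paralogues of a family did not always keep their ratio. The 14 families with several members gave 20 pairs, and for each the log2 ratio of the 2 counts was compared between media within genotype, and between genotypes within medium (exact permutation test over 400 arrangements, two-sided, adjusted over the 20 pairs). In 12 of the 20 pairs the mean TPM of the paralogues differed by less than 1.5-fold, and in 6 by more than 2-fold, up to 34.4-fold for P0. In each trio of paralogues (S3, S4 and S18) the third ratio follows from the others, so the 20 pairs are not independent. With mannitol 14 of the 20 ratios shifted, 10 of them at the smallest p the test allows, 0.005. Among the 14 is the L9 pair, whose reads may be split between its genes, as said above. The shifts were small, with a median size of 0.13 and a largest of 0.25 on the log2 scale. Between genotypes 4 ratios shifted, and 10 had an unadjusted p under 0.05. That count of 4 was 0 without Col-0 mannitol replicate 3, where the lowest adjusted p was 0.05, and 7 without Col-0 mannitol replicate 1. Without Col-0 mannitol replicate 2 the counts were 13 with mannitol and 3 between genotypes. How often the ratio of other gene pairs shifted was not tested, so these counts have no background share beside them.

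The largest shift with mannitol was in the L8 pair. The log2 ratio of EMB2296 to AT4G36130 was 1.24 ± 0.03 in Col-0 water, 1.53 ± 0.05 in Col-0 mannitol, 1.38 ± 0.08 in odr1-2 water and 1.60 ± 0.11 in odr1-2 mannitol (SD, n = 3; exact permutation p = 0.005, adjusted 0.01, for mannitol). EMB2296, the more abundant gene of the pair, thus gained on the other by 0.25, while both fell. AT4G36130 overlaps AT4G36140 on the opposite strand, as said above, and the part of such reads in this ratio was not tested. In the S13 pair the ratio of RPS13A to AT3G60770 went from -0.12 ± 0.03 to 0.13 ± 0.05 in Col-0 and from -0.16 ± 0.07 to 0.03 ± 0.04 in odr1-2. In Col-0 the order of their counts thus turned round, with AT3G60770 at a log2 fold change of -0.35 and RPS13A at -0.11. In the S4 trio the ratio of AT2G17360 to AT5G58420 shifted by 0.21 with mannitol and by 0.14 with genotype. With mannitol these 2 counts came closer, from a log2 ratio of -0.42 to -0.23 in Col-0 and from -0.30 to -0.07 in odr1-2. The P0 pair shifted by 0.21 with mannitol, within its wide spread (exact permutation p = 0.05, adjusted 0.0667).

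The S9 and L24 pairs, whose promoters are printed above, shifted with both factors. The ratio of AT5G15200 to AT5G39850 was 2.2 ± 0.05 in Col-0 water, 2.00 ± 0.04 in Col-0 mannitol, 2.00 ± 0.03 in odr1-2 water and 1.86 ± 0.05 in odr1-2 mannitol. It fell with mannitol (exact permutation p = 0.005, adjusted 0.01) and in odr1-2 (p = 0.005, adjusted 0.0250), by 0.17 in each case. Here the major gene AT5G15200 lost more, from 2030, 2130 and 2090 TPM in Col-0 water to 1280, 1260 and 1320 TPM in odr1-2 mannitol. In the L24 pair the ratio of STV1, known for its part in reinitiation after upstream reading frames, to RPL24A was 0.98 ± 0.02, 1.16 ± 0.07, 1.19 ± 0.05 and 1.33 ± 0.04 in the same order of groups. RPL24A, the minor gene, lost more, from 871, 883 and 846 TPM in Col-0 water to 453, 499 and 462 TPM in odr1-2 mannitol. The shift of the L24 ratio by genotype, 0.19, was the largest of the 20.

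In the L4 pair the ratio of AT3G09630 to AT5G02870 shifted by 0.15 with mannitol (exact permutation p = 0.005, adjusted 0.01). In the S3 trio that of AT2G31610 to AT3G53870 shifted by -0.15, with the same p. For S6, the target of S6 kinase, the ratio of RPS6 to EMB3010 shifted by -0.03 with mannitol (exact permutation p = 0.325, adjusted 0.361) and by -0.07 with genotype (adjusted 0.0571). Both S6 genes were lower in each of the 4 comparisons. The L5 pair, whose proteins carry 5S ribosomal RNA, shifted by -0.04, with the same size in both genotypes (exact permutation p = 0.005, adjusted 0.01). PFL and RPS18C (S18) had mean log2 ratios between 0.26 and 0.30 in the 4 groups.

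**Figure D4:**
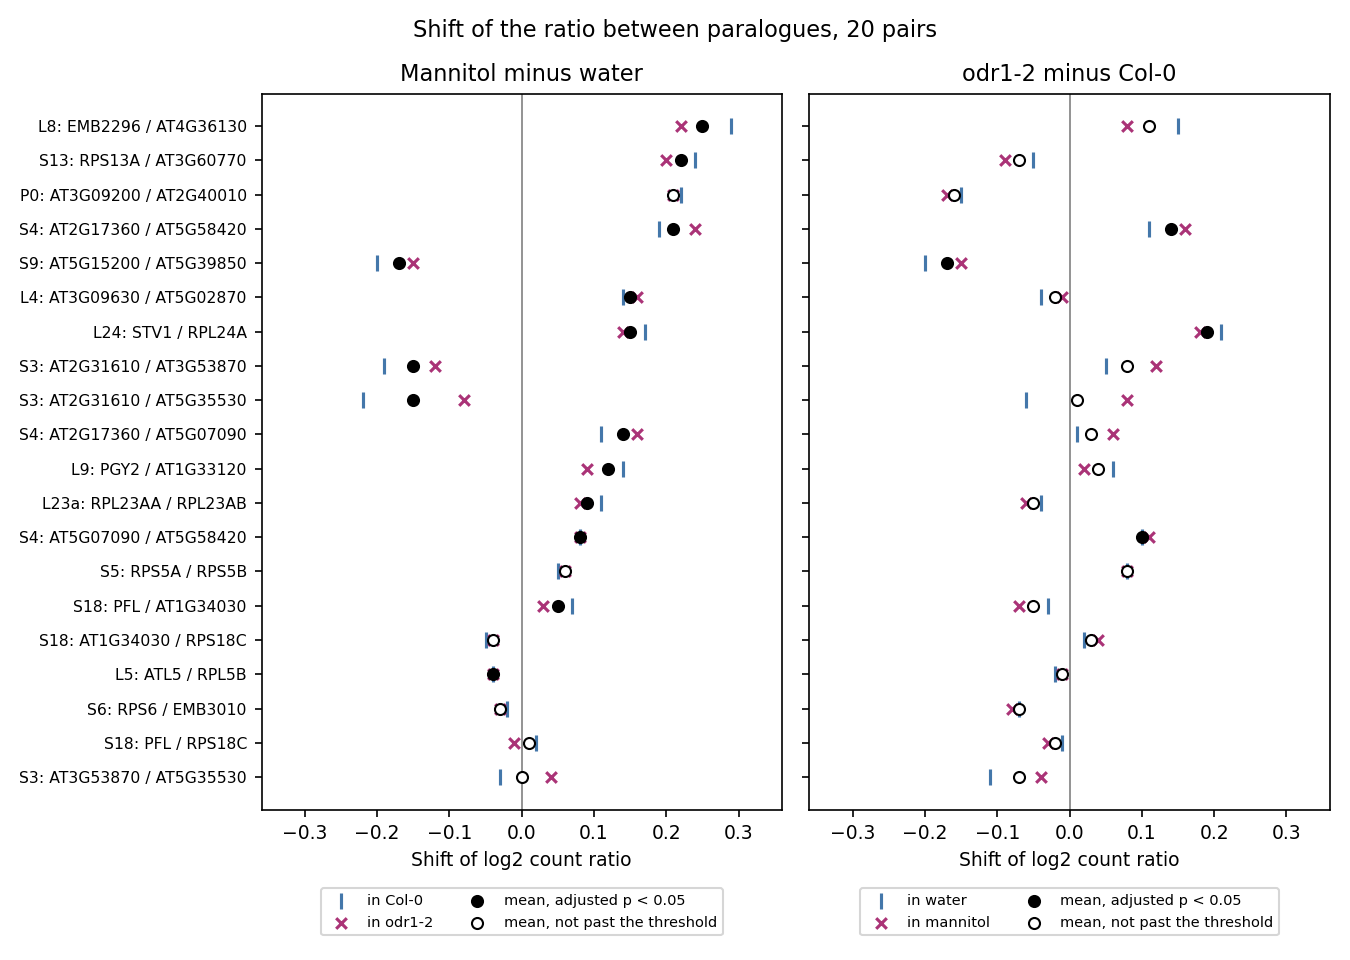
Shift of the log2 count ratio of 20 paralogue pairs (horizontal axis) between mannitol and water (left) and between odr1-2 and Col-0 (right); circles are means over both genotypes (left) or both media (right), filled where the adjusted p was under 0.05, and the other marks give each genotype or medium. With mannitol 14 pairs are filled, with shifts of up to 0.25, and with genotype 4 are filled.

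The rest of the machinery of translation was read from lists. Of 183 other cytosolic ribosomal protein genes 166 were tested. Lower were 119 under mannitol in Col-0, 120 in odr1-2, and 152 in odr1-2 in either medium. Of all genes tested, 21.4% and 21.3% fell with mannitol in Col-0 and odr1-2. In odr1-2, 18.6% and 19.6% of all genes were lower in water and mannitol. The medians of the 166 lay between -0.32 and -0.22, close to those of the 58. The largest fall under mannitol was that of AT5G59240, at -1.39 ± 0.17 in Col-0 and -1.50 ± 0.19 in odr1-2. It is the low paralogue of the most abundant of the 58, AT5G20290 (S8). RPL18AA rose in odr1-2 with mannitol by 0.88 ± 0.14 and was higher in odr1-2, by 0.74 ± 0.16 in water and 1.46 ± 0.15 in mannitol. It overlaps AT1G29965 on the same strand, so its reads may be split.

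Most genes for ribosome production were lower too, beside 21.4% and 21.3% of all genes that fell with mannitol in Col-0 and odr1-2. In odr1-2, 18.6% and 19.6% of all genes were lower in water and mannitol. Of 28 ribosome biogenesis genes, which process and assemble ribosomal RNA, 22 fell with mannitol in Col-0 and none rose, and in odr1-2 25 fell and 1 rose. In odr1-2 against Col-0, 25 were lower and 1 higher in water, and 24 were lower in mannitol. Examples are NHP2, a protein of small nucleolar particles, at -0.63 ± 0.05 with mannitol in Col-0, and a NOP56-like gene, AT3G12860, at -0.67 ± 0.05 in odr1-2 in water. Of 33 translation factor genes 19 fell and 3 rose with mannitol in Col-0, and 24 were lower and 3 higher in odr1-2 in water. EIFISO4G2, for a scaffold of the plant isoform of the cap complex, fell by 0.72 ± 0.05 with mannitol in Col-0, and EIF5A-3 rose by 0.38 ± 0.06.

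Organelle ribosomal protein genes were counted apart. With mannitol 10 of 49 nuclear genes for chloroplast ribosomal proteins fell and 5 rose in Col-0, and 15 fell and 4 rose in odr1-2. The Col-0 share of falls, 20.4%, is near the 21.4% of all genes. In odr1-2 against Col-0 in water 32 of these 49 were lower and 3 higher. PSRP3/1, a plastid ribosomal protein, fell by 0.60 ± 0.08 with mannitol in odr1-2. Of 16 mitochondrial ones 6 (37.5%) fell with mannitol in Col-0, and 7 (43.8%) fell and 1 rose in odr1-2. In odr1-2 in water 9 (56.2%) were lower. Of all genes 21.4% and 21.3% fell with mannitol in Col-0 and odr1-2, and 18.6% were lower in odr1-2 in water. The difference in frequency between these lists was not tested.

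Of 14 genes for TOR, its partners and its targets, 4 rose (28.6%) and 3 fell (21.4%) with mannitol in Col-0, beside 21% and 21.4% of all genes. MRF1, a translation regulator downstream of TOR, rose by 1.20 ± 0.05 in Col-0 and 0.91 ± 0.05 in odr1-2. S6K1, an S6 kinase, fell by 0.78 ± 0.06 in Col-0 and by 0.45 ± 0.06 in odr1-2. The other S6 kinase gene, S6K2, went the other way and rose by 0.57 ± 0.11 in Col-0 and 0.57 ± 0.10 in odr1-2. TOR itself was at 0.18 ± 0.09 and 0.03 ± 0.09 and was not called. None of 6 regulators of ribosomal protein genes (TCP20, TRB1, TRB2, TRB3, NAC082 and PURA1, which include proteins that bind site II or telo box elements) was called in any comparison. Their log2 fold changes with mannitol in Col-0 ran from -0.12 to 0.28.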

How the data were processed

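Counts per gene were deposited by the authors as whole numbers, and TPM (transcripts per 1000000, scaled by length) as a second table. The tools fastp 0.23.1, HISAT2 2.2.1 and HTSeq 2.0.5 and the build TAIR10 come from the submitters' processing notes. How strand and multiply mapped reads were treated is not given in the sources used here. Per the labels' protocols, poly-T beads selected messenger RNA and random hexamers primed the copies.

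Tests on counts used edgeR 4.0.16 (quasi-likelihood, R 4.3.3, robust spread, TMM scaling, filterByExpr with minimum count 10 and minimum total 15). The 12 libraries entered 1 fit with 4 group means. All were two-sided, and p-values were adjusted by Benjamini-Hochberg over 18413 genes, with a threshold of 0.05. TPM levels sit on another scale than TMM-scaled counts, and were tested only in 1 alternative (limma-trend). Library totals ran from 10060020 to 13693166, the TMM factors from 0.960 to 1.03, and the common biological coefficient of variation was 5.80%. Counting error alone would give a chi-square per degree of freedom of 1 between replicates, and replicate pairs gave 2.01 to 5.75. The analysis code was tested on simulated data.

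Paralogue ratios used counts plus 0.5. Names, promoters, overlaps and 100-base shared windows come from RefSeq TAIR10.1. Families follow standard plant nomenclature, and the annotation states the subunit for 43 of the 58 genes.

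The members, the lists and the rule for named genes were chosen with earlier results of these data known. Any of the 58 may be named. Members with the 3 highest and 3 lowest fold changes per comparison and the pairs with the largest shifts come first, most with a value per library. From each other list the called gene with the largest change in each direction may be named, if its mean reached 1 CPM. TOR, TOZ, S6K2 and the 6 regulators were named after their values were seen, and so were the 5 promoters printed. Alternatives were DESeq2 1.42.0, limma 3.58.1, other scalings and filters, a replicate block and leaving out each library.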

Additional observations from a re-analysis of the deposited data

Results flagged for a closer look

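No group has more than 3 libraries, so no outlier rule was applied to single libraries. Col-0 mannitol replicate 2 was described above as somewhat apart from its group, and it was kept in the reported fit. In 5 genes of the translation lists, none of them among the 58, the effect of mannitol differed between genotypes (interaction in the edgeR fit). The nucleolar genes NOP5-1 and TOZ had interactions of -0.26 (adjusted p = 0.00107) and -0.24 (adjusted p = 0.0266), with log2 fold changes of -0.12 and -0.10 in Col-0 and of -0.38 and -0.34 in odr1-2. MRF1 had one of -0.29 (adjusted p = 0.00322), with the smaller rise in odr1-2. S6K1 had one of 0.33 (adjusted p = 0.0166) and the ribosomal protein gene AT5G67510 one of 0.30 (adjusted p = 0.0291), with the smaller falls in odr1-2.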

How the results depend on the processing

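No value changed sign past a threshold under the alternatives run. Of the single-gene values, 6654 stayed on their side of the threshold, 130 passed it newly and 113 no longer passed it. Genes lower with mannitol numbered 37 to 52 in Col-0 and 40 to 56 in odr1-2 over the alternatives (43 and 46 as reported). Genes lower in odr1-2 numbered 51 to 57 in water and 54 to 57 in mannitol. The share of all genes called under each alternative was not determined. The median with mannitol in odr1-2 was -0.25 under upper-quartile scaling, -0.29 under total count scaling and -0.32 under limma-trend on TPM, against -0.21. The median in odr1-2 against Col-0 in water was -0.34 under upper-quartile scaling. The median of all genes moved too, and relative to it these were -0.21, -0.22, -0.22 and -0.29. Leaving out 1 library gave 0 to 1 genes higher with mannitol in Col-0, and 0 to 2 positive and 0 to 1 negative interactions. Of the negative interactions 1 passed under upper-quartile scaling, total count scaling, limma-voom, limma-trend and the replicate block. Correlations were -0.02 to 0.05 between libraries of the same replicate number and -0.05 to 0.03 between those of different numbers. The labels do not say whether a number is shared by groups, and such values cannot exclude a weak shared batch. With the block 9 rather than 4 pair ratios differed by genotype, and leaving out 1 library gave 0 to 7. The sum of the 58 in percent of Col-0 water was 87.7 for Col-0 mannitol on TMM-scaled counts, and 66.4 (share of counts) and 70.8 (TMM-scaled) for odr1-2 mannitol. The cause of the other shifts was not tested. AT3G09680 drops out under the stricter filter on low counts.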
